A study of Mus musculus with 6 samples.

Results

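Matrix metalloproteinases (MMPs) are zinc-dependent proteases that cut proteins of the extracellular matrix, and the tissue inhibitors of metalloproteinases (TIMPs) are secreted proteins that bind and block their active site. Most MMPs are made as inactive proenzymes and act once a propeptide is removed, so that transcript level is only one of several layers that set their activity. Macrophages are a known source of MMPs in inflamed and remodelling tissue. The 9 genes described here are Mmp8, Mmp9, Mmp12, Mmp13, Mmp14, Mmp19, Timp1, Timp2 and Timp3, which were chosen by gene symbol. All 9 were among the 15903 genes that could be tested, of 57010 genes in the count table.

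The study addressed how an excess of sodium chloride acts on macrophages, and RNA sequencing was done on bone marrow-derived macrophages (BMDMs), which are bone marrow cells grown into macrophages with the growth factor M-CSF. Marrow came from 3 Cx3cr1GFP mice on the C57BL/6J background, which carry GFP in the Cx3cr1 locus, so that every library of both groups shares this allele. From each mouse there was 1 unstimulated library (control, n = 3) and 1 library from cells kept for 24 h with 62 mM additional NaCl (NaCl, n = 3), all in medium with 10 ng/ml M-CSF, and the age of the mice was not given in the sources used here. Only adherent cells were taken for RNA, so the values refer to cells that stayed attached.

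The libraries held 4088065 to 20123570 counts, with the lowest total in the NaCl library of mouse 3, where 1235 of the tested genes had no count, against 79 to 309 in the other 5. All 10 macrophage markers were detected, and their summed level was 15993 to 18374 CPM in control and 24909 to 32084 CPM in NaCl libraries, a difference that lay mostly in Lyz2 (lysozyme), at 9817 against 19148 CPM. Adgre1, which encodes the surface protein F4/80, was at 1614 and 1406 CPM, and Cd68 at 1395 and 1333 CPM. Without matching of mice, edgeR called 1 of the 10 markers as higher and DESeq2 called 2, and neither called any as lower (adjusted p under 0.05). In these fits 0.478% and 1.54% of all genes were called as higher. Once libraries of the same animal were matched, edgeR called 2 markers higher and 2 lower, beside 4.6% and 4.3% of all genes. CPM are counts as a share of the library total, scaled up to a common size after normalisation for composition (TMM), so a lower value can come from fewer cells that make the transcript or from less transcript per cell, which cannot be told apart in bulk RNA.

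No member passed the test between the groups in edgeR's quasi-likelihood fit (adjusted p under 0.05 over all 15903 genes). Among all genes, 0.478% passed as higher and 0.176% as lower in NaCl in that fit. At an unadjusted p under 0.05 the fit gave 1 member, Mmp13, against 2010 of all genes tested. With the mouse as a replicate block, which compares each NaCl library with the control library of the same animal, Mmp13 passed as lower and Mmp19 as higher, where 4.3% of all genes passed as lower and 4.6% as higher. DESeq2 without the block called Mmp13 alone among the 9, as lower, beside 0.975% of all genes lower and 1.54% higher. The median log2 fold change of the 9 genes was -0.22 in edgeR and -0.25 with the block, and over all genes tested it was -0.006 and -0.017.

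The collagenase gene Mmp13 had the smallest p of the 9 genes, and 3 of its neighbours on chromosome 9 were also well counted. Mmp13 is the first gene of a row of 10 MMP genes on that chromosome, in the order Mmp13, Mmp12, Mmp1b, Mmp3, Mmp1a, Mmp10, Mmp8, Mmp27, Mmp20 and Mmp7, with no other protein-coding gene between them in RefSeq. The 150 bases before the start of the transcript are shown for the 4 of them that averaged 50 counts or more, so that the letters can be read beside the changes. They are given from 5′ to 3′ on the plus strand of GRCm38.p6 (RefSeq), and capitals mark the AP-1 element TGAGTCA, read on either strand, and the TATA element TATAAA, read on the strand of the gene.
Mmp13, chr9:7272364-7272513: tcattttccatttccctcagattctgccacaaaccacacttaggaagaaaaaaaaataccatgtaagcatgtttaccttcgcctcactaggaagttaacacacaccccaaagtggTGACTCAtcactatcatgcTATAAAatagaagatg
Mmp12, chr9:7344247-7344396: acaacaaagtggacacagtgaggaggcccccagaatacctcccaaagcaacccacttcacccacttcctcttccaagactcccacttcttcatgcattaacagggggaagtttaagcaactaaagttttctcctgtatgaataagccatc
Mmp8, chr9:7558279-7558428: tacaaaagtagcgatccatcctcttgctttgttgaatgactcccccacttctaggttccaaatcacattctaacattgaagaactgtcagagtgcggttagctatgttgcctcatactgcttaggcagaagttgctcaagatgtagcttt
Mmp27, chr9:7571246-7571395: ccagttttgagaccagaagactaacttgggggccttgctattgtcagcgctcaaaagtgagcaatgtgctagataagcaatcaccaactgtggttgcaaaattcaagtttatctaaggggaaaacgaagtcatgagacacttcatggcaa
The Mmp13 stretch holds the AP-1 letters on the minus strand, 35 to 29 bases before the start, and TATAAA 16 to 11 bases before it. Neither element was found in the other 3 stretches. A search of 250 bases before each start found the AP-1 letters in 4.46% and TATAAA in 7.59% of 32851 mouse promoters. The PEA3 element AGGAAG, found on either strand in 29.5% of promoters, occurred at 2 places before Mmp13, at 109 to 104 and 62 to 57 bases, and at 1 place each before Mmp12 and Mmp8. A second annotated start of Mmp12 has the AP-1 letters 44 to 38 bases before it. The consensus of the tonicity-responsive enhancer TonE, which occurred in 4.31% of all promoters, was not found in the 250 bases before any start of Mmp8, Mmp12, Mmp13, Mmp14, Mmp27 or the 3 TIMP genes. A match describes letters only and is no evidence of a bound factor.

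Mmp13 (ENSMUSG00000050578.11) encodes collagenase 3, which cleaves fibrillar collagens. In the control libraries of mice 1, 2 and 3 it was at 114, 146 and 135 CPM, from 1004, 1609 and 2667 counts. In the NaCl libraries of the same mice it was at 94.8, 69.4 and 93.9 CPM, from 848, 766 and 392 counts. Every NaCl library lay below every control library, and Mmp13 was the only member whose groups did not overlap, a pattern that 10.1% of all genes showed in the lower and 8.92% in the higher direction. The mean was 131 CPM ± 16.0 (SD, n = 3) in control and 86.0 CPM ± 14.4 (SD, n = 3) in NaCl libraries. Within mice the log2 ratios were -0.27, -1.07 and -0.52, the largest step being that of mouse 2.

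In edgeR the log2 fold change of Mmp13 was -0.62 (SE 0.16, 95% confidence interval -0.97 to -0.26), with an unadjusted p of 0.00339 and an adjusted p of 0.146. With the replicate block the estimate was -0.62 (SE 0.13, interval -0.90 to -0.35), a level in NaCl of 0.65 times control, with an adjusted p of 0.00302 in edgeR. DESeq2 gave an adjusted p of 0.0412 without and 0.00679 with the block. edgeR without the block also called Mmp13 when genes with a total of 1 count or more were kept (adjusted p = 0.00763), so the call turned on the tool, the filter and whether mice were matched. In the fit with the block it passed without mouse 1 (-0.79), without mouse 2 (-0.38) and without mouse 3 (-0.66), so that leaving out mouse 2 brought the estimate nearest to 0.

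**Figure D1:**
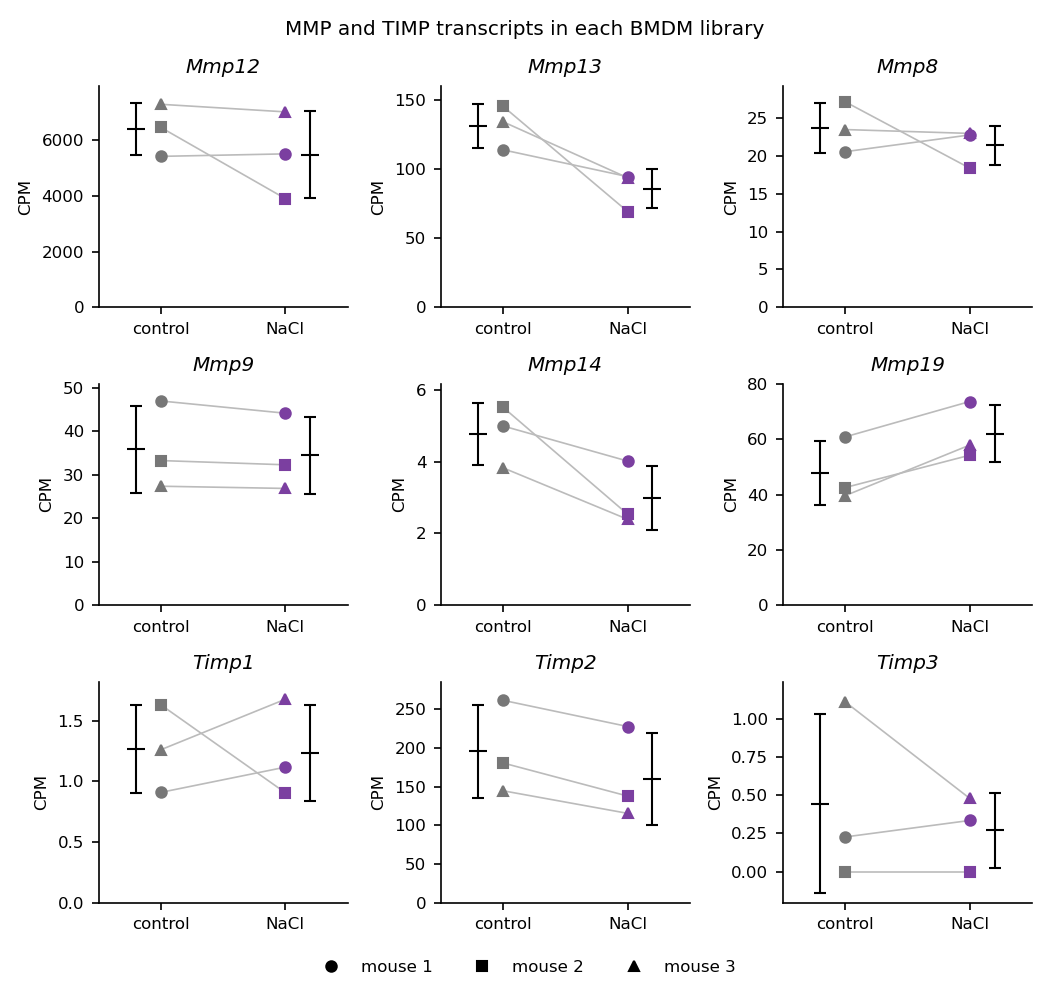
CPM (vertical axes, each from 0 except that of Timp3, which runs lower to hold its error bar) of the 9 genes in the 3 control (grey) and 3 NaCl (purple) libraries, with a line joining the libraries of 1 mouse and bars for the mean ± SD. The NaCl points of Mmp13, at 69.4 to 94.8 CPM, lie below all its control points, at 114 to 146 CPM, and the 3 lines of Mmp19 all rise.

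Mmp8 (ENSMUSG00000005800.4), the gene of collagenase 2, which is stored in neutrophil granules, stood at a fraction of the Mmp13 level. Control libraries of mice 1 to 3 had 20.6, 27.2 and 23.5 CPM, from 181, 300 and 466 counts. NaCl libraries had 22.8, 18.4 and 23.0 CPM, from 204, 203 and 96 counts. The groups overlapped, and within mice the log2 ratio was 0.15 in mouse 1, -0.56 in mouse 2 and -0.03 in mouse 3. The means were 23.8 CPM ± 3.30 and 21.4 CPM ± 2.60 (SD, n = 3 each). The edgeR log2 fold change of Mmp8 was -0.16 (SE 0.17, 95% confidence interval -0.54 to 0.22, adjusted p = 0.75), and -0.16 (SE 0.15, interval -0.47 to 0.15, adjusted p = 0.607) with the block.

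Mmp9 (ENSMUSG00000017737.3), on chromosome 2, encodes gelatinase B, which degrades type IV collagen and denatured collagen. It was at 47.0, 33.2 and 27.3 CPM in control libraries and at 44.1, 32.3 and 26.8 CPM in NaCl libraries of mice 1, 2 and 3. Its order was the same in both groups, with mouse 1 highest and mouse 3 lowest. The log2 ratios within mice were -0.09, -0.04 and -0.03. The means were 35.8 CPM ± 10.1 and 34.4 CPM ± 8.85 (SD, n = 3 each). For Mmp9 the edgeR log2 fold change was -0.04 (SE 0.23, interval -0.57 to 0.48, adjusted p = 0.968), and the block narrowed the 95% interval to -0.32 to 0.21 around -0.05 (SE 0.13, adjusted p = 0.864).

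Both Mmp8 and Mmp9 are also made by neutrophils and their precursors, which marrow cultures can hold. All 14 neutrophil markers were detected, with a summed level of 340 to 637 CPM in control and 333 to 433 CPM in NaCl libraries. Ly6g, which defines mature mouse neutrophils, reached at most 0.656 CPM and was at 0 in no library. The neutrophil elastase gene Elane lay between 0.479 and 3.13 CPM. Of the 14 markers 8 averaged 50 counts or more, and most of the summed level came from genes other than Ly6g and Elane. None of the 14 markers passed in edgeR or in DESeq2 without the block (3 at an unadjusted p under 0.05 in edgeR). With the block 4 passed as lower, which were Csf3r, Lcn2, Mpo and Ngp, beside 4.3% of all genes. Whether such cells contributed to the Mmp8 or Mmp9 reads was not tested.

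Mmp12 (ENSMUSG00000049723.15), the gene of macrophage elastase, which degrades elastin, was by far the most abundant member. Its CPM in the control libraries of mice 1, 2 and 3 was 5419, 6457 and 7289. In the NaCl libraries it was 5508.5, 3901 and 7017. Mice 1 and 3 barely moved, with log2 ratios of 0.02 and -0.05, while mouse 2 had -0.73, and the groups overlapped. Mmp12 ranked 7th to 16th among all genes by count and took 0.371% to 0.718% of all counts of a library. The means were 6388 CPM ± 937 and 5475 CPM ± 1558 (SD, n = 3 each), with an edgeR log2 fold change of -0.22 (SE 0.21, interval -0.70 to 0.25, adjusted p = 0.717). The replicate block gave -0.25 (SE 0.14, interval -0.53 to 0.03, adjusted p = 0.294) for Mmp12 in edgeR. The estimate without the block was -0.02 when the NaCl library of mouse 2 was left out and -0.44 when that of mouse 3 was, and with the block it was -0.01 without mouse 2.

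Mouse 2 had the largest fall for each of the well counted genes of the row on chromosome 9. This was not particular to that row. Mmp14, Timp2 and Timp1, on other chromosomes, also had their lowest log2 ratio in mouse 2 (-1.07, -0.39 and -0.73), while Mmp9, Mmp19 and Timp3 did not. When the log2 ratio of a neighbour in the same mouse was subtracted, the values of Mmp13 drew together, at -0.29, -0.34 and -0.46 against Mmp12 and at -0.41, -0.51 and -0.49 against Mmp8 in mice 1, 2 and 3. Mmp27, next to Mmp8 and a member of the MMP family whose substrates are little known, was lower still. Its 3 control libraries had 11.8, 10.4 and 8.63 CPM and its 3 NaCl libraries 7.15, 3.17 and 3.83 CPM, without overlap. Its edgeR log2 fold change was -1.10 (SE 0.30, adjusted p = 0.165), and -1.18 (SE 0.22, adjusted p = 0.000615) with the block, and DESeq2 gave an adjusted p of 0.0424. Against Mmp8 the log2 ratio of Mmp27 was lower by 0.86 in mouse 1 and by 1.10 in each of the other mice. These differences between neighbours were computed after the values had been seen and were not tested. No gene outside the row was subtracted in this way. Mmp14, on chromosome 14, had log2 ratios of -0.30, -1.07 and -0.64, close to the -0.27, -1.07 and -0.52 of Mmp13. The drawing together of the Mmp13 values is therefore not shown to be particular to the row. Mmp10, with a mean of 4.67 counts, was too thinly counted to place.

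**Figure D2:**
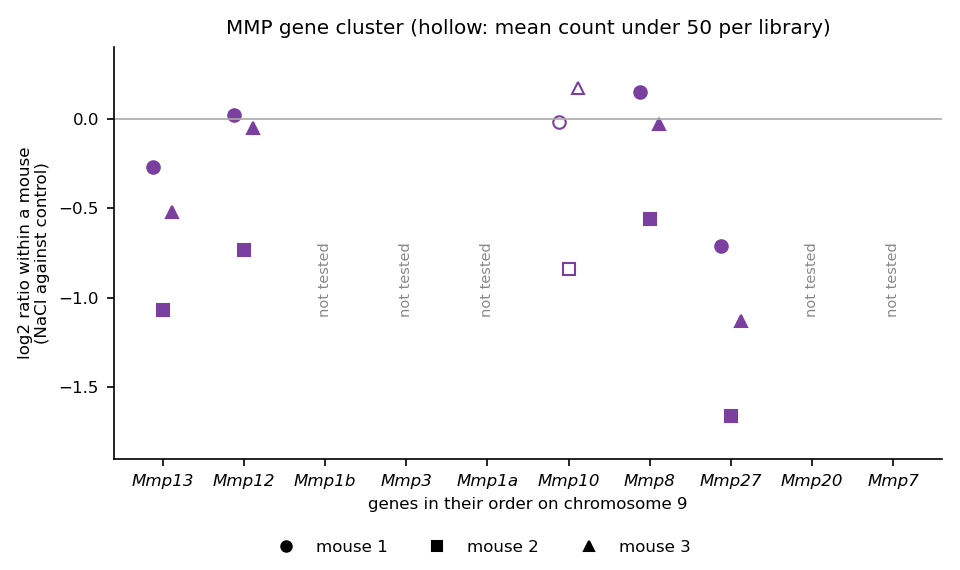
Log2 ratio of NaCl to control within each mouse (vertical axis) for the MMP genes of chromosome 9 in their order (horizontal axis), with 1 symbol per mouse, hollow for Mmp10, and "not tested" for genes with a total under 10 counts. Mmp13 and Mmp27 lie below 0 in all mice (-0.27 to -1.07 and -0.71 to -1.66), while Mmp12 and Mmp8 lie near 0 in mice 1 and 3.

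Mmp14 (ENSMUSG00000000957.12), on chromosome 14, encodes the membrane-anchored MT1-MMP, which cuts collagen at the cell surface and activates pro-MMP2. Only 10 to 76 counts per library stood behind it. Control libraries had 5.003, 5.53 and 3.83 CPM and NaCl libraries 4.02, 2.54 and 2.40 CPM in mice 1, 2 and 3. All mice went down, by 0.30, 1.07 and 0.64 on the log2 scale, although the NaCl library of mouse 1 lay above the control library of mouse 3. The means were 4.79 CPM ± 0.866 and 2.99 CPM ± 0.901 (SD, n = 3 each). Mmp14 had nearly the same estimate as Mmp13, with a wider interval, at -0.64 (SE 0.29, interval -1.29 to 0.01, adjusted p = 0.40) in edgeR and -0.71 (SE 0.26, interval -1.24 to -0.18, adjusted p = 0.0887) with the block, and it passed in neither. Mmp2, the usual partner of Mmp14, had 9 counts in the 6 libraries together and was not tested.

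Mmp19 (ENSMUSG00000025355.8), on chromosome 10, encodes a secreted MMP that acts on basement membrane proteins, and it was the only member that was higher in NaCl in every mouse. It was at 60.9, 42.6 and 39.6 CPM in control libraries and at 73.8, 54.3 and 58.0 CPM in NaCl libraries of mice 1, 2 and 3. The control library of mouse 1 lay above the NaCl libraries of mice 2 and 3, so the groups overlapped, and the rise showed within mice, with log2 ratios of 0.27, 0.35 and 0.55. The means were 47.7 CPM ± 11.5 and 62.0 CPM ± 10.3 (SD, n = 3 each). In edgeR the log2 fold change of Mmp19 was 0.38 (SE 0.19, interval -0.05 to 0.81, adjusted p = 0.449), and the block gave 0.39 (SE 0.12, interval 0.14 to 0.64, adjusted p = 0.045), a 1.31-fold level.

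The call of Mmp19 with the block was narrow. It was lost without mouse 1 (log2 fold change 0.46, adjusted p = 0.158 in edgeR) and without mouse 3 (0.32, adjusted p = 0.216) and held without mouse 2 (0.41, adjusted p = 0.00956). DESeq2 with the block gave an adjusted p of 0.109. In the GENCODE M21 annotation 28.3% of the exonic bases of Mmp19 overlap genes on the opposite strand, Tmem198b and Gm47093. Tmem198b was at 12.1 CPM ± 1.404 and 11.7 CPM ± 2.79 (SD, n = 3 each), with an edgeR log2 fold change of -0.04 (adjusted p = 0.964), and Gm47093 had 1 count in all.

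**Figure D3:**
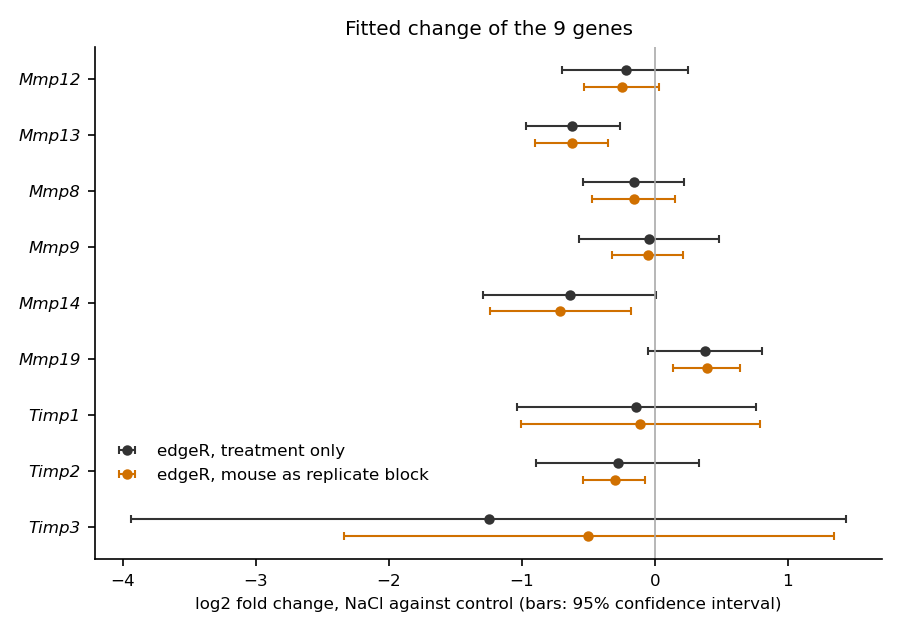
Log2 fold change of NaCl against control (horizontal axis) for the 9 genes in edgeR without (dark) and with (orange) the mouse as a replicate block, with bars for the 95% confidence interval. The intervals of Mmp13 lie below 0 in both fits (-0.97 to -0.26 and -0.90 to -0.35), and those of Mmp9 and Timp2 narrow with the block (to -0.32 to 0.21 and to -0.54 to -0.07).

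Timp2 (ENSMUSG00000017466.11), on chromosome 11, was the main inhibitor transcript, at 93.83% to 98.46% of the summed CPM per kb of the 3 TIMP genes in each library. TIMP2 inhibits MMPs and also takes part, with MT1-MMP, in the activation of pro-MMP2. Timp2 was at 261, 180.4 and 145 CPM in control and at 228, 138 and 115 CPM in NaCl libraries of mice 1, 2 and 3. As with Mmp9, mouse 1 was highest and mouse 3 lowest in both groups. Each mouse was lower with NaCl, with log2 ratios of -0.20, -0.39 and -0.32, while the groups overlapped widely, with means of 195 CPM ± 59.8 and 160.3 CPM ± 59.3 (SD, n = 3 each). The edgeR estimate for Timp2 was -0.28 (SE 0.27, interval -0.89 to 0.33, adjusted p = 0.72), and with the block it was -0.30 (SE 0.12, interval -0.54 to -0.07, adjusted p = 0.104), so that it passed in neither. Without the block the estimate moved to -0.01 when the control library of mouse 1 was left out and to -0.62 when the NaCl library of mouse 1 was.

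Timp1 (ENSMUSG00000001131.12), on chromosome X, and Timp3 (ENSMUSG00000020044.14), on chromosome 10, were barely detected. Timp1, an inhibitor that binds pro-MMP9, had 8, 18 and 25 counts in control and 10, 10 and 7 in NaCl libraries, or 0.910, 1.63 and 1.26 CPM and 1.12, 0.906 and 1.68 CPM. Its direction differed between mice (0.25, -0.73 and 0.36), and its edgeR estimate of -0.14 (SE 0.40, 95% interval -1.04 to 0.76, adjusted p = 0.926) has an interval that spans changes in both directions. Timp3, the inhibitor that stays bound to the matrix, had 2, 0 and 22 counts in control and 3, 0 and 2 in NaCl libraries, so that its fitted change, drawn with the others and counted in the median of the 9, is not read as a fold. Most of its counts lay in 1 library, the control of mouse 3, and both libraries of mouse 2 had none, which at a limit of 3 counts allows up to 0.272 CPM in each. In addition, 21.3% of its exonic bases overlap Syn3 on the opposite strand, which had 9 counts in all.

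TIMP genes are also made by stromal cells. Of 10 stromal markers only 4 reached the minimum total, and their sum was 4.44 to 8.02 CPM in control and 1.72 to 7.19 CPM in NaCl libraries. The type I collagen gene Col1a2 was at 0.569, 0.362 and 2.22 CPM in control and at 0, 0.0906 and 2.16 CPM in NaCl libraries of mice 1, 2 and 3. Col1a1 was likewise highest in the 2 libraries of mouse 3, at 1.82 and 1.44 CPM. Timp3 had 22 counts in the control library of that mouse and 2 in its NaCl library, whereas Col1a2 was similar in both. The other tested stromal markers, Pdgfrb and Postn, are not given by library here, so the collagen genes do not stand for the list. The part of stromal cells in the Timp3 values was not tested.

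Levels can be compared between genes only per length. In CPM per kb of exon, Mmp12 was at 883 ± 129 in control and 757 ± 215 in NaCl libraries (SD, n = 3 each). It made up 83.25% to 90.6% of the sum of the 9 genes. With the longest transcript as length Mmp12 was at 1430 CPM per kb in control, so its level and share depend on that choice. Timp2 at 50.2 ± 15.3 and Mmp13 at 49.2 ± 5.99 came next in control and did not differ beyond their spread, and in NaCl libraries they were at 41.1 ± 15.2 and 32.2 ± 5.38, again with overlap. Mmp19 at 13.5 ± 3.27, Mmp9 at 10.1 ± 2.84 and Mmp8 at 9.80 ± 1.36 followed in control, and with NaCl they were at 17.6 ± 2.93, 9.72 ± 2.50 and 8.82 ± 1.07. Mmp19 was above both others within each library of either group, although its range overlapped that of Mmp9 in control. Mmp9 and Mmp8 did not differ beyond their spread. The Mmp19 level is over all its exonic bases, 28.3% of which overlap opposite-strand genes, in libraries without strand information. Timp1 at 1.43 ± 0.406 and Mmp14 at 0.803 ± 0.145 were low, and their order turned when the longest transcript was used as length in place of all exons (1.43 and 1.48 CPM per kb in control). Timp3 was lowest, at 0.0547 ± 0.0720. Leaving Mmp12 aside, the other 8 genes summed to 150.7, 136 and 118 CPM per kb in control and to 139, 94.9 and 100.6 in NaCl libraries of mice 1, 2 and 3.

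**Figure D4:**
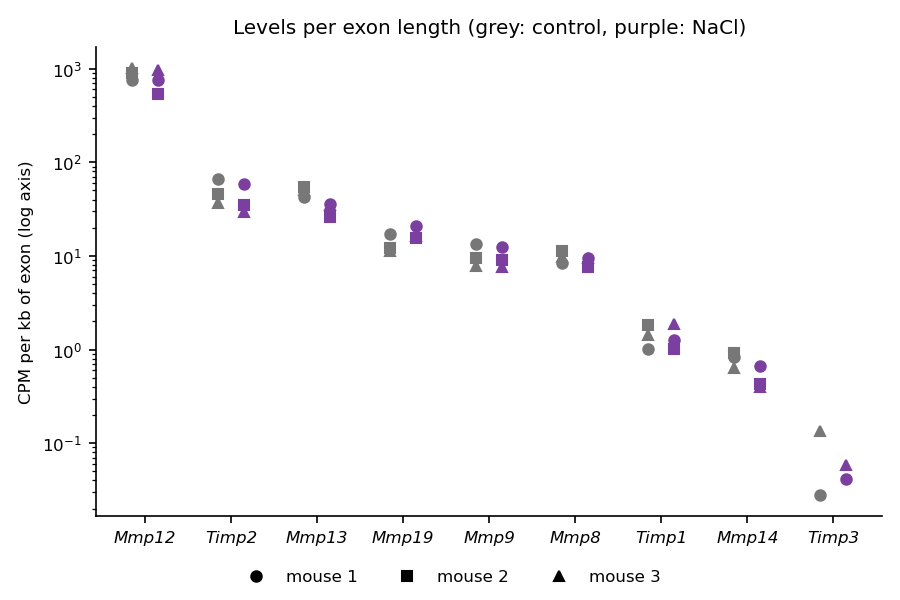
CPM per kb of exon (vertical log axis) for the 9 genes, ordered by control mean, in the control (grey) and NaCl (purple) libraries of each mouse (symbols); the 2 zero values of Timp3, both from mouse 2, cannot be drawn on a log axis. Mmp12, at 883 CPM per kb in control, stands more than an order of magnitude above Timp2 (50.2) and Mmp13 (49.2).

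The direction within mice can be counted without a test. Of the 9 genes, 4 were lower in 3 of 3 mice (Mmp13, Mmp14, Timp2 and Mmp9), 1 was higher in 3 of 3 (Mmp19) and 4 were mixed (Mmp12, Mmp8, Timp1 and Timp3). Among all genes tested 23.4% were lower and 20.1% higher in 3 of 3 mice. The steps of Mmp9, at most 0.09 on the log2 scale, belong to this count only by sign.

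The rest of the MMP family was largely silent in these cells. Of 18 other genes, the remaining MMPs and Timp4, 7 reached the minimum total of 10 counts. Mmp27 was the only one past the test, as lower with the block (and in DESeq2). Among all genes 4.3% passed as lower with the block and 0.975% in DESeq2. edgeR without the block called none of the 7 (2 at an unadjusted p under 0.05). Their median log2 fold change was -0.81 in edgeR and -0.94 with the block. Of these 7 only Mmp27 averaged 50 counts or more, so the medians rest mostly on thinly counted genes. The other 11 had at most 9 counts in the 6 libraries together. Among these, the stromelysin gene Mmp3, the matrilysin gene Mmp7, the interstitial collagenase gene Mmp1a, Mmp16, Mmp20, Mmp24 and Timp4 had none.

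The plasminogen system yields plasmin, which can activate pro-MMPs, and 9 of its 11 genes were tested. With the block 4 passed as lower and 1 as higher, beside 4.3% and 4.6% of all genes. edgeR without the block gave 1 lower and 0 higher, beside 0.176% and 0.478% of all genes. DESeq2 gave 3 lower and 0 higher, beside 0.975% and 1.54%. Plau, the gene of the plasminogen activator urokinase, was at 1337, 2675 and 2643 CPM in control and at 732, 1329 and 1181 CPM in NaCl libraries of mice 1, 2 and 3. Every NaCl library of Plau lay below every control library, and its log2 fold change was -1.01 with the block (adjusted p = 2.37e-06) and -1.04 in edgeR without it (adjusted p = 0.165).

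Plaur, the urokinase receptor gene, averaged 155 CPM ± 29.0 without and 93.7 CPM ± 14.6 with NaCl (SD, n = 3 each), with a log2 fold change of -0.72 and an adjusted p of 0.00019 in edgeR with the block and 0.117 without. Serpine2, which encodes the protease inhibitor protease nexin 1, fell from 10.2 CPM ± 0.717 to 3.79 CPM ± 1.23 (SD, n = 3 each) and passed in edgeR without (adjusted p = 0.0469) and with the block (0.000104). Without any single library edgeR without the block called 0 genes of this list as lower, so that call of Serpine2 rested on all 6. Plgrkt, a plasminogen receptor gene, was at 54.8 and 41.1 CPM (adjusted p = 0.0302 with the block). The median of the 9 was -0.33 in edgeR and -0.31 with the block.

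Of 15 genes for proMMP activation, docking and clearance, 11 were tested, and edgeR called none of them without the block (6 at an unadjusted p under 0.05). DESeq2 called 1, as lower, beside 0.975% of all genes. With the block edgeR called 2 as higher and 4 as lower, beside 4.6% and 4.3% of all genes, with a median of -0.05. Cd44, a hyaluronan receptor on which MMP9 docks, was at 537.6 CPM ± 6.55 and 372 CPM ± 46.7 (SD, n = 3 each), without overlap (log2 fold change -0.54, adjusted p = 0.00373 in edgeR with the block and 0.130 without). Lcn2, whose product forms a complex with MMP9 and which is also 1 of the neutrophil markers, was at 31.2 and 17.4 CPM (adjusted p = 0.00185 with the block), and the integrin gene Itgb3 at 17.5 and 11.4 CPM (0.0199).

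Of the same genes, Cav1, which encodes the caveolar protein caveolin-1, was higher with NaCl (7.96 and 15.3 CPM, adjusted p = 0.00191 in edgeR with the block), as was Pcsk7, a proprotein convertase gene of the furin family (40.8 and 56.4 CPM, 0.0444). The 4th lower gene was Reck, the membrane-anchored MMP inhibitor, which with a mean of 27.7 counts is outside the rule for named genes and was picked after its values were seen. Reck had means of 3.42 CPM (control) and 1.26 CPM (NaCl) (adjusted p = 0.00892 with the block).

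Other protease families gave few calls. Of 13 tested ADAM and ADAMTS genes, edgeR called none without the block (3 at an unadjusted p under 0.05), DESeq2 called 1 as higher and 1 as lower, and with the block Adam9, a membrane sheddase gene, passed as lower (311 and 224 CPM, adjusted p = 0.0113 in edgeR) and Adamts10, whose product binds fibrillin, as higher (58.2 and 93.0 CPM, 0.00221). Among all genes 4.6% passed as higher and 4.3% as lower with the block. In DESeq2 1.54% passed as higher and 0.975% as lower, and in edgeR without the block 0.478% and 0.176%. The median of this list was -0.14. Of 9 tested cathepsin and cystatin genes, Ctsk alone passed. Ctsk, the gene of the collagen-degrading protease cathepsin K, was at 14.9, 17.6 and 15.5 CPM in control and at 40.5, 52.2 and 38.1 CPM in NaCl libraries of mice 1, 2 and 3. Its log2 fold change was 1.45 (SE 0.17, adjusted p = 0.00773) in edgeR and 1.44 with the block (adjusted p = 5.01e-08), which makes it the one protease gene of these lists that passed as higher in both fits. Without the control library of mouse 2 or that of mouse 3, edgeR without the block called 0 genes of this list.

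**Figure D5:**
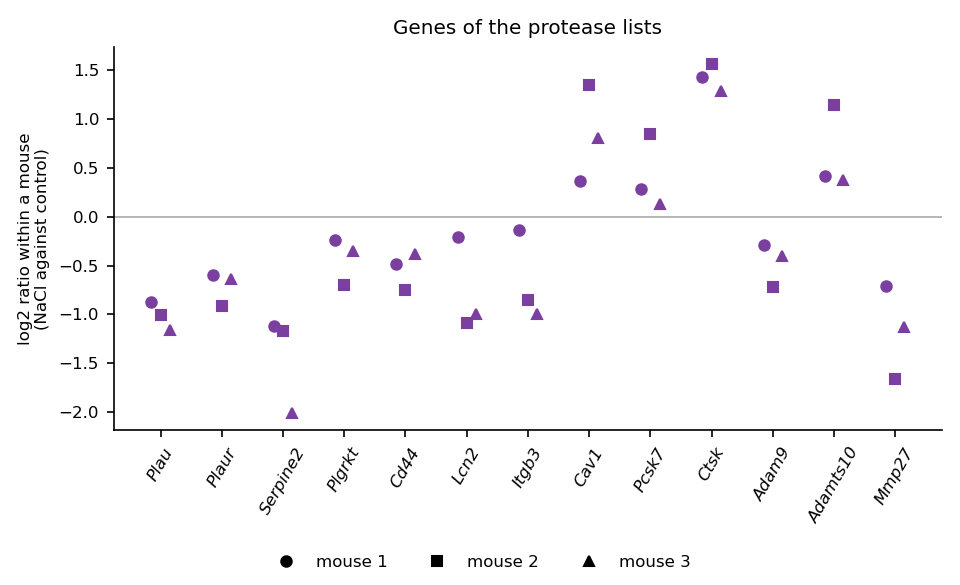
Log2 ratio of NaCl to control within each mouse (vertical axis, 1 symbol per mouse) for the genes named here of the plasminogen, MMP-docking, cathepsin, ADAM and other-MMP lists (horizontal axis). Ctsk lies above 1 and Plau near -1 in all mice (1.29 to 1.56 and -0.87 to -1.16).

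For each member that averaged 50 counts or more, the 3 genes with the most similar profile over the 6 libraries were sought among 9923 genes, as the root mean square difference of centred log2 CPM. The nearest to Mmp13 were Rnpc3, Gask1b and Pdia3, each at a difference of 0.05, beside an SD of 0.39 of Mmp13 itself. Mmp12 was nearest to Glmn, Lactb2 and Vapa (differences of 0.05 to 0.07, own SD 0.33), and Mmp8 to Etv6, Traf6 and Eea1 (0.04 to 0.06, own SD 0.19). Mmp9 had Entrep3 and Epsti1 among its 3 (0.06 each, own SD 0.34), Mmp19 had Elmod3, Pimreg and Dennd5a (0.06 to 0.07, own SD 0.33), and Timp2 had Dio2, Slc37a1 and Shisa9 (0.07 to 0.10, own SD 0.45). No gene named here was among the nearest of more than 1 member, and no MMP or TIMP gene was among the nearest of another.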

How the data were processed

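The authors sequenced RNA from 3 control and 3 NaCl libraries and, per their methods and the submitters' processing notes, trimmed reads with fastp 0.20.0 and aligned them with STAR 2.7.10b. The authors deposited raw counts per gene and normalised counts, a signal obtained by dividing counts by DESeq2 1.40.2 size factors. Symbols came from the normalised table, whose values equal the counts over their size factors within 4.4e-10. Counts were tested with edgeR 4.0.16 (quasi-likelihood, TMM) on genes with a total of at least 10, with Benjamini-Hochberg adjustment over 15903 genes. CPM are TMM-scaled, log2 ratios within mice use a prior count of 2, and SD is over 3 libraries. DESeq2 1.42.0, limma 3.58.1, other scalings and filters, thinned libraries and omitted libraries were tried. The labels number mice 1 to 3 in both groups. On these labels mice were treated as pairs in the fit with the replicate block. Deviations from the group means correlated across genes at 0.43, 0.15 and 0.22 for the same mouse and at -0.35 to 0.12 for other pairs. Deviations within a group sum to 0, so these values depend on each other. The NaCl library of mouse 2 was at 0.15 with its own control and at 0.12 with that of mouse 3, so its pairing is hardly shown. Scripts were tested on simulated data. The limit of 3 counts given for a count of 0 covers counting error only.

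The genes and lists were chosen with earlier results of these data known. Named list genes passed edgeR with or without the block and averaged 50 counts or more, at most 6 per list by p. Exon lengths and overlaps came from GENCODE M21 and promoters from RefSeq GRCm38.p6, and Mmp9 and Mmp19 were not matched in the promoter table. Per the authors' methods the library kit kept no strand information. Reads on bases shared with a gene on the opposite strand therefore cannot be assigned by strand. The strand setting of the authors' counting is not given in the sources used here. Of Mmp12, 2.2% of exonic bases overlap Mmp1b, and at a read length of 75 bases none of the exonic windows of Mmp8, Mmp9, Mmp13, Mmp14, Timp1, Timp2 or Mmp27 match another gene. Some genes that the naming rules select are not reported here.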

Additional observations from a re-analysis of the deposited data

How the results depend on the processing

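edgeR without the replicate block called 0 members in either direction and 76 genes higher and 28 lower. With the replicate block it called 1 member higher and 1 lower, and 732 genes higher and 684 lower. The following settings called 0 members higher and 1 lower, which was Mmp13 each time. DESeq2 gave 245 genes higher and 155 lower, in DESeq2 the block raised these to 452 and 354, keeping genes with as few as 1 count gave 362 and 300, and libraries thinned to equal totals with the block gave 470 and 363. At an adjusted p under 0.01 with the block, a setting added after seeing the data, there were 414 and 330. Thinned without the block, edgeR called no member and 45 genes higher, and at an adjusted p under 0.01 it called no member, 17 genes higher and 1 lower.

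Leaving out 1 library at a time gave 0 members and 8 to 123 genes higher and 0 to 46 lower, and leaving out 1 mouse with the block gave 0 to 1 members higher, 1 lower, and 469, 758 and 715 genes higher and 417, 661 and 585 lower for mice 1, 2 and 3. limma-voom, filterByExpr, scaling by total counts and median-ratio size factors called no member. Of 186 values of the 9 genes over 21 settings, 12 turned direction, none of them with an adjusted p under 0.05. Mmp9 was at 0.01 in limma-voom and at 0.08 thinned without and with the block, and Mmp8 at 0.06 in both thinned fits. With a library or mouse left out, Mmp9 ranged from -0.26 to 0.20, Mmp8 from -0.30 to 0.07 and Timp1 from -0.34 to 0.36. The cause of these moves was not tested. Leaving out a mouse left 2 pairs. Timp3 had no value under filterByExpr, which removed it. It also had none without the control library of mouse 3 and, with the block, without mouse 3.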

Other observations

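Among the genes of proteins that make up or crosslink the matrix, 21 of 24 were tested, and the type IV collagen genes Col4a1 and Col4a2, which encode basement membrane chains, rose together in edgeR with the replicate block. Col4a1 was at 4.09, 6.79 and 12.8 CPM in control and at 10.6, 22.5 and 24.4 CPM in NaCl libraries of mice 1, 2 and 3 (log2 fold change 1.33, adjusted p = 1.37e-05 with the block). Col4a2 went from 14.97 CPM ± 6.53 to 31.4 CPM ± 8.81 (SD, n = 3 each, log2 fold change 1.11, adjusted p = 1.24e-05 with the block). Spp1, the gene of osteopontin, rose within every mouse (1.01, adjusted p = 4.28e-06 with the block), as did the fibronectin gene Fn1 (0.56, 0.00417) and Tgfbi, which encodes an adhesion protein of the matrix (0.50, 0.00933). Thbs1, the thrombospondin-1 gene, fell (-1.12, adjusted p = 1.64e-06 with the block). Tnc, the tenascin C gene, which was picked after its values were seen and has a mean of 34.8 counts, was the only gene of this list past edgeR without the block (0.784 and 7.26 CPM, adjusted p = 0.0461). With the block 6 passed as higher and 2 as lower, beside 4.6% and 4.3% of all genes, P4ha1 being the other lower one. DESeq2 gave 3 higher and 0 lower, beside 1.54% and 0.975% of all genes. edgeR without the block called 0.478% of all genes as higher. The median log2 fold change was -0.18, and -0.13 with the block.

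Of genes that are known to act upstream of MMP transcription (AP-1, NF-kB and TGF-beta genes), 24 were tested. edgeR without the block and DESeq2 called none of them (4 at an unadjusted p under 0.05 in edgeR). The block gave 4 higher and 1 lower, beside 4.6% and 4.3% of all genes. Fos, which encodes an AP-1 subunit, was at 224, 76.5 and 171 CPM in control and at 253, 229 and 376 CPM in NaCl libraries of mice 1, 2 and 3 (log2 fold change 0.96, adjusted p = 0.000298 with the block). The AP-1 gene Junb (0.42, adjusted p = 0.0187), Ets2 (0.48, 0.0218) and the cytokine gene Tnf (0.78, 0.0028) also passed as higher and Tgfb1 as lower (-0.45, 0.0139) in edgeR with the block. The median was 0.07, and 0.08 with the block.

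Of the marker lists of other cells, the osteoclast list had 8 of 10 genes tested. With the block 2 were higher and 2 lower, beside 4.6% and 4.3% of all genes. edgeR without the block and DESeq2 each called 1 as higher and 0 as lower. Of all genes they called 0.478% and 1.54% as higher. The list summed to 847 to 908 CPM in control and 784 to 884 CPM in NaCl libraries. It shares Ctsk and Itgb3 with the protease lists. The dendritic cell list had 10 tested genes, none of which passed in edgeR with or without the block (0 at an unadjusted p under 0.05 without it) or in DESeq2. The monocyte list had 6 tested genes. edgeR without the block, edgeR with it and DESeq2 each called 1 of them as higher, beside 0.478%, 4.6% and 1.54% of all genes. Mast cell and basophil (5 tested), B cell (2 tested) and erythroid (1 tested) lists had no gene past either edgeR fit or DESeq2 and 0 at an unadjusted p under 0.05 in edgeR without the block. The 4 stromal genes likewise gave none.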
